A study of Rattus norvegicus with 12 samples.

Results

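The endothelin and angiotensin systems of the neonatal rat heart were followed through 9 genes, taken by symbol from a table that listed 32545 genes. They were the ligand genes Edn1 (endothelin 1) and Edn3 (endothelin 3), the endothelin receptors Ednra and Ednrb, the endothelin-converting enzyme Ece1, the precursor Agt (angiotensinogen), the angiotensin-converting enzyme Ace, and the angiotensin receptors Agtr1a and Agtr2. Sprague-Dawley (SD) rats underwent fistula surgery, which joins the abdominal aorta to the inferior vena cava and so causes volume overload (VO), or a sham operation on postnatal day 1 (P1). Free-wall myocardium of the left ventricle (LV) and the right ventricle (RV) was sequenced at P7, giving 4 groups of 3 libraries, the sham LV and VO LV and the sham RV and VO RV. The labels name no transgene, drug or second strain in any group, and the sham pups carried an operation too. They do not say whether the libraries came from separate animals, so the p values measure the spread between these 12 libraries only.

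Endothelin 1 is released as a larger peptide that Ece1 cuts into its active form, and it contracts vessels and enlarges cardiomyocytes through Ednra, while Ednrb on endothelial cells relaxes vessels and clears the peptide. In the other system angiotensinogen is cut in steps, Ace completes angiotensin II, and Agtr1a carries its constrictor and growth signals, with Agtr2 as a receptor known from fetal tissue that opposes many of them. Both receptor families signal through G proteins and protein kinase C in the heart, and both systems are known to answer to stretch and pressure.

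The reads on genes numbered 14121713 to 16871371 in a library, and 17128 to 17807 genes were above 0. The deposited unit was FPKM, the fragments on a gene scaled to its length and to the size of the library, which allows levels to be compared between genes. The myocardial label was borne out by the 10 ventricular cardiomyocyte markers, whose FPKM summed to between 19239 and 30651. The sum of 6 atrial markers was 4637 FPKM in VO RV replicate 2 and 1144 in sham RV replicate 1, against 291 to 387 in the other 4 RV libraries and 751 to 1792 in the LV. Their mean log2(FPKM + 0.5) was 8.45 and 6.76 in those 2 RV libraries and 3.74 to 4.82 in the other 10, so several results are also given without those libraries. Because whole tissue was sequenced, fewer cells of a type and less RNA per cell cannot be told apart.

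By mean level over the 12 libraries the order was Ece1 at 31.1 FPKM, Ednra at 19.5, Ednrb at 8.61, Ace at 3.38, Agtr1a at 2.87, Edn1 at 2.03, Agt at 1.55, Agtr2 at 0.122 and Edn3 at 0.0291. Ece1 was above Ednra, Ednra above Ednrb and Ednrb above Ace in 12 of 12 libraries. Ace was above Agtr1a in 7 of 12 libraries and Edn1 above Agt in 8 of 12, so those neighbours did not differ beyond their spread. Agtr1a was above Edn1 in 11 of 12, Agt above Agtr2 in 12 of 12, and Agtr2 above Edn3 in 10 of 12. The endothelin enzyme and receptors were therefore at higher FPKM than the angiotensin genes, while the ligand genes of both systems were at low FPKM.

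**Figure D1:**
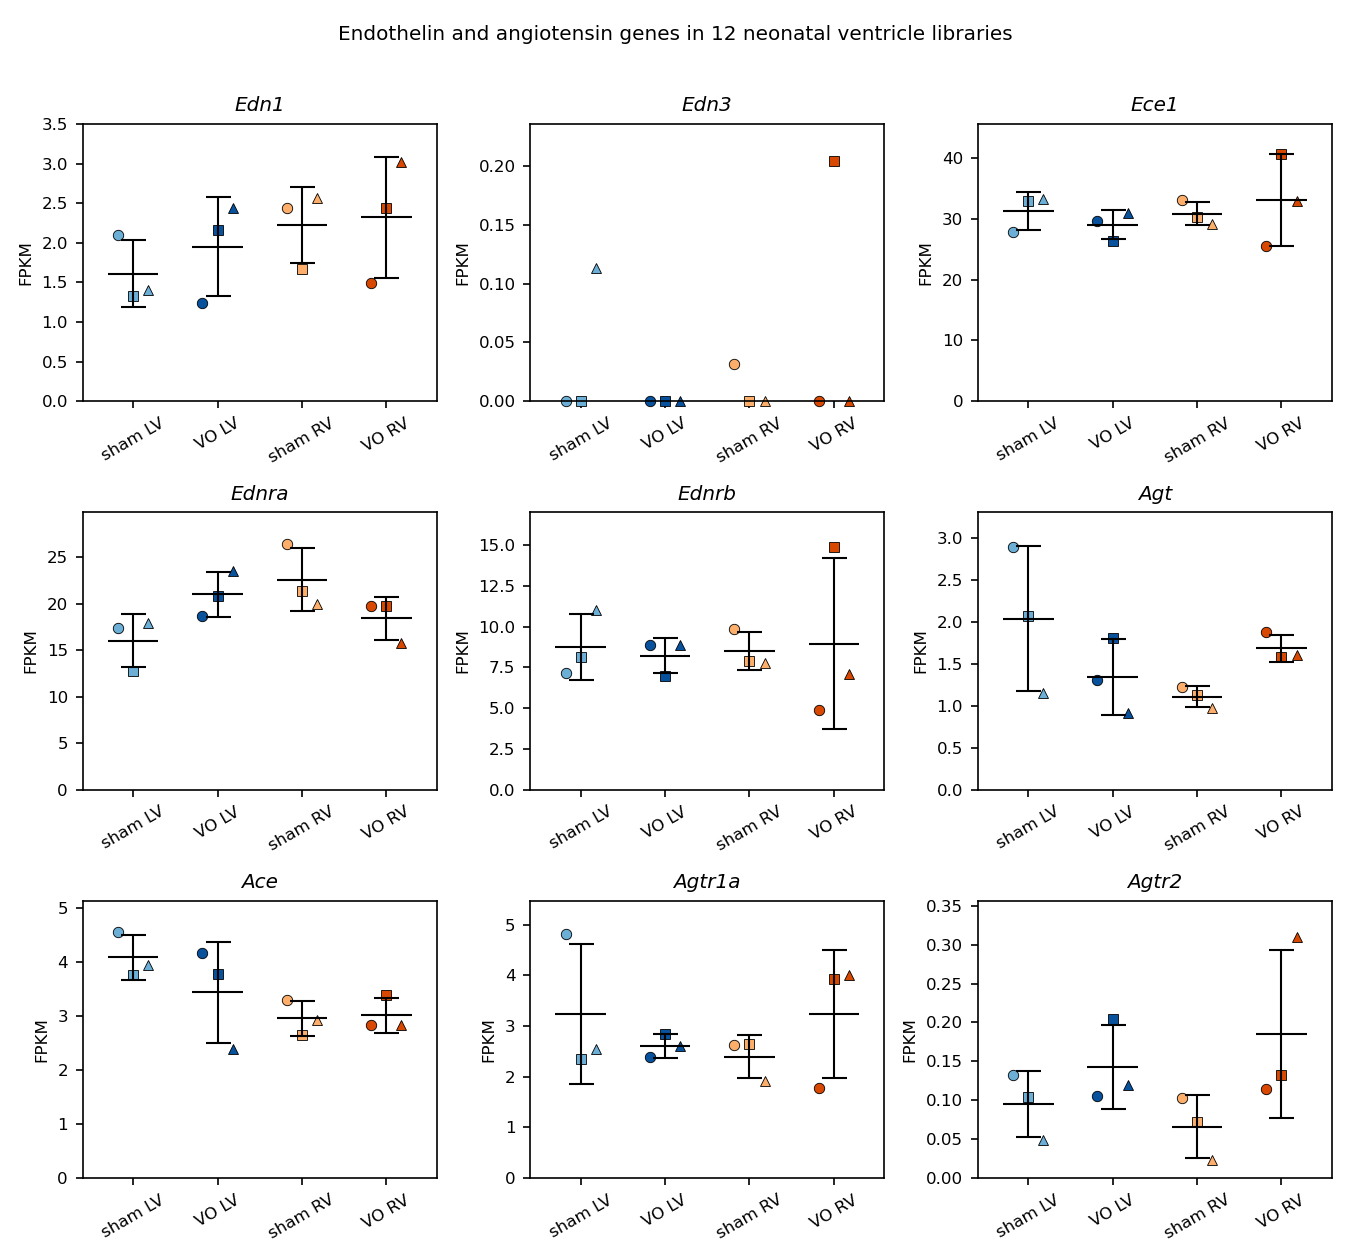
FPKM (y axis, linear, from 0) of the 9 genes in sham LV, VO LV, sham RV and VO RV. Each point is 1 library (circle, square and triangle for replicates 1, 2 and 3), the wide bar is the mean and the error bar the SD of 3 libraries (points only for Edn3); Ednra was above the sham LV range in all 3 VO LV libraries and below the sham RV range in all 3 VO RV libraries.

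No member was a differentially expressed gene (DEG) in any comparison. A DEG needed a Benjamini-Hochberg adjusted p under 0.05 over all 13910 tested genes (mean FPKM of at least 0.5) and a fold change over 1.3, in 1 limma model of log2(FPKM + 0.5); 7 members were tested, and Edn3 and Agtr2 lay under the filter. Limma voom on the recovered reads also called 0 members. Each comparison was also read at the unadjusted p under 0.05 with the same fold change, and by whether the 3 libraries of one group all lay beyond the 3 of the other.

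Between sham LV and sham RV, 0 of 7 members were DEGs where 3.86% of all tested genes were, and the smallest adjusted p of a member was 0.0860, for Ednra. At the unadjusted p, 3 of 7 passed (Ednra lower, Agt and Ace higher in the LV), against 17.8% of all genes. The groups did not overlap for 2 (Ednra and Ace), against 32.2% of all genes, a share close to that of the members. The median log2 fold change was 0.03 over the members and 0.01 over all genes. Without sham LV replicate 1 or 2, without any 1 of the sham RV libraries, or without both atrial-rich RV libraries, the count at the unadjusted p was 1.

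For VO LV against sham LV, 0 of 7 members were DEGs, against 0.0935% of all genes. Ednra alone passed the unadjusted p, against 15.7% of all genes, and was also the only member without overlap, against 32.4%. The median was −0.11 over the members and −0.02 over all genes. The count at the unadjusted p was 0 without VO LV replicate 3 or sham LV replicate 2 and 2 without sham LV replicate 3, and it was also 0 with quantile normalization, array weights or the gene-length trend removed.

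For VO RV against sham RV, 0 of 7 members were DEGs, as were 0% of all genes, 683 of which passed the unadjusted p in limma. At the unadjusted p, 0 of 7 members passed, against 4.91% of all genes, and the count was 1 without VO RV replicate 1 or without VO RV replicate 2. The groups did not overlap for 2 tested members (Ednra and Agt), against 12.5%. The median was 0.03 over the members and 0.00 over all genes.

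For VO LV against VO RV, 0 of 7 members were DEGs, against 0.00719% of all genes, and 0 passed the unadjusted p, against 7.4%. No tested member was free of overlap, against 16.1% of all genes. The median was −0.16 over the members and 0.01 over all genes.

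The difference of the LV and RV responses, that is the change from sham to VO in the LV minus that in the RV, made 0 of 7 members DEGs, against 4.19% of all genes. At the unadjusted p, 2 of 7 passed (Ednra positive, Agt negative), against 23.1% of all genes. The count was 1 without VO LV replicate 1 or 3, sham LV replicate 1 or 2, or sham RV replicate 2 or 3, and without both atrial-rich RV libraries. The median was −0.18 over the members and −0.04 over all genes. The comparisons share libraries, so they are not independent of each other.

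**Figure D2:**
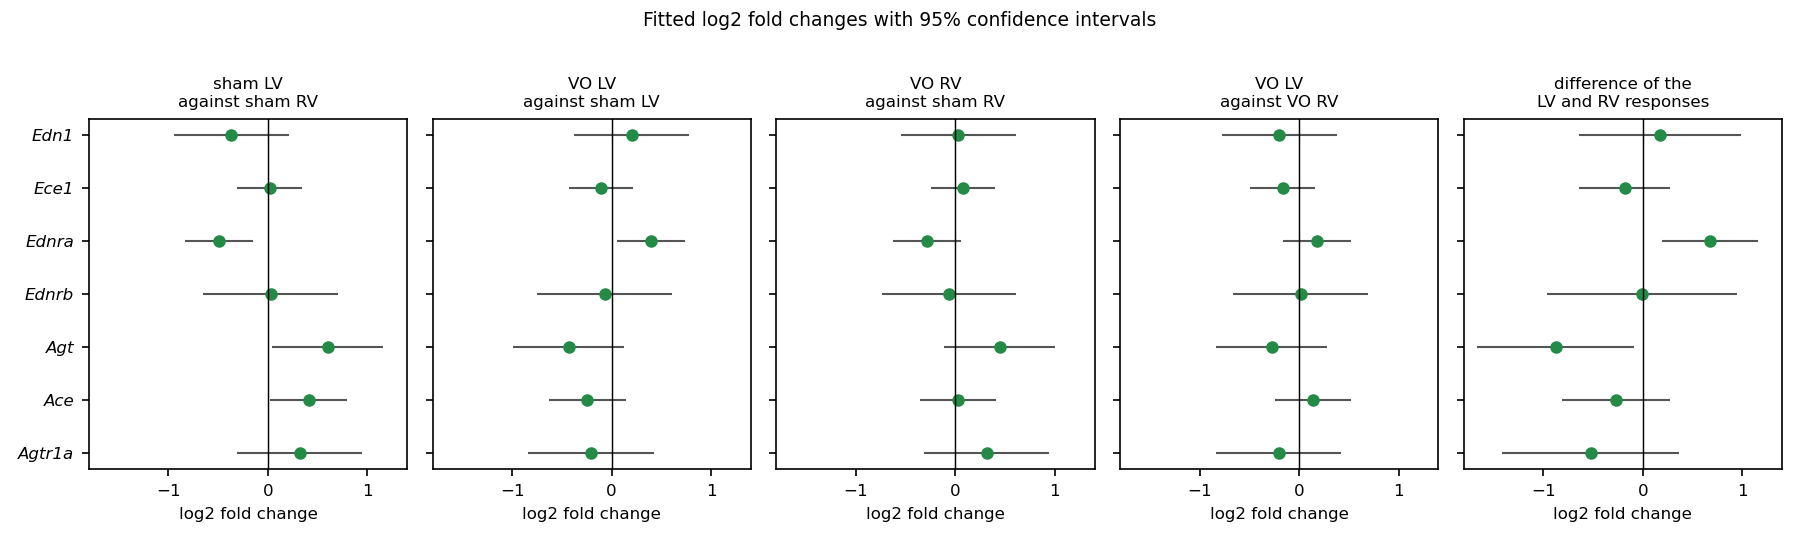
Fitted log2 fold changes (x axis) of the 7 tested genes in the 5 comparisons, as points with 95% confidence intervals from the limma model of 12 libraries; the vertical line marks no change. The intervals of Ednra and Agt leave out 0 in 3 and 2 of the 5 panels, that of Ace in 1, and no point passed the adjusted p.

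Edn1 (chr17:22137324-22143324 as the table lists it, build not given in the sources used here) encodes endothelin 1, the main cardiac endothelin. Its level was 2.11, 1.33 and 1.4 FPKM in sham LV, 1.25, 2.17 and 2.44 in VO LV, 2.44, 1.67 and 2.57 in sham RV and 1.5, 2.45 and 3.02 in VO RV. The 4 groups overlapped. With 27 to 69 reads per library, counting alone gave a coefficient of variation of 13.7% to 17.1% for a library of average depth in its group. The fitted log2 fold change was −0.37 between sham LV and sham RV (95% confidence interval −0.95 to 0.21), 0.20 in VO LV and 0.03 in VO RV against their shams.

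Edn3 encodes endothelin 3, which acts through Ednrb on neural crest cells. It was listed at 0 in 9 of 12 libraries and at 0.113 FPKM (3 reads) in sham LV replicate 3, 0.0317 (1 read) in sham RV replicate 1 and 0.205 (7 reads) in VO RV replicate 2. A count of 0 allowed up to 3 reads, or 0.0921 to 0.111 FPKM in the libraries at 0, so a difference was not detectable at this depth. These limits cover counting error only. VO RV replicate 2, which held 7 of the 11 reads, also had the largest sum of the Schwann cell and neural crest markers (14.5 FPKM, against 5.51 to 11.6 elsewhere, with all 7 listed markers above 0 in at least 1 library); the part of those cells in its reads was not tested.

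Ece1 (chr5:156215417-156318671), the membrane enzyme that makes active endothelin, had the highest level of the 9 genes. It was 27.8, 33.0 and 33.3 FPKM in sham LV, 29.8, 26.4 and 31.0 in VO LV, 33.1, 30.4 and 29.3 in sham RV and 25.6, 40.8 and 32.9 in VO RV. The group means lay between 29.1 ± 2.40 in VO LV and 33.1 ± 7.60 in VO RV (SD, n = 3), and all groups overlapped. Its log2 fold change was 0.02 between the sham ventricles (95% confidence interval −0.31 to 0.34), −0.11 in VO LV and 0.08 in VO RV. The intervals bound any change of Ece1 more tightly than that of the other members, with 1776 to 3407 reads behind each value.

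Ednra (chr19:33928356-33991703), the receptor through which endothelin 1 contracts smooth muscle and acts on cardiomyocytes, had the smallest p of the tested members in all 5 comparisons. It was 17.4, 12.7 and 17.9 FPKM in sham LV and 26.4, 21.3 and 20.0 in sham RV, with means of 16.0 ± 2.85 and 22.6 ± 3.39 (SD, n = 3). Every sham LV library lay below every sham RV library. The log2 fold change was −0.49 (standard error 0.16, p = 0.00888, adjusted p = 0.0860 from limma, exact permutation p = 0.1, the smallest that 3 libraries against 3 allow).

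With VO, Ednra was 18.6, 20.8 and 23.5 FPKM in the LV (mean 21.0 ± 2.45) and 19.7, 19.8 and 15.8 in the RV (mean 18.4 ± 2.29). The VO LV libraries all lay above sham LV and the VO RV libraries all below sham RV, so the differences from sham had opposite signs in the ventricles, and the VO groups overlapped each other. Against sham the log2 fold change of the LV was 0.39 (adjusted p = 0.165 from limma), that of the RV −0.28 (adjusted p = 0.638) and that between VO LV and VO RV 0.18. The difference of the responses was 0.68 (95% confidence interval 0.19 to 1.16, adjusted p = 0.0947 from limma). Of the 13910 tested genes, 658 (4.73%) likewise had VO and sham apart without overlap in both ventricles, with opposite signs.

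The Ednra gene model was 5077 bases long, and the libraries differed in how the 25% of genes with the longest models ran against the mean of all libraries. This mean log2 deviation was −0.068 to −0.033 in sham LV, −0.0075 to 0.049 in VO LV, −0.012 to 0.11 in sham RV and −0.053 to 0.074 in VO RV. With each library's trend on gene length removed, Ednra was −0.41 between the sham ventricles (adjusted p = 0.108 from limma) and 0.56 for the difference of the responses (adjusted p = 0.121). Without both atrial-rich RV libraries the same values were −0.38 and 0.62.

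Ednrb (chr15:88006977-88036354) encodes the endothelin receptor of endothelial and neural crest derived cells. It was 7.14, 8.10 and 11.0 FPKM in sham LV, 8.84, 6.98 and 8.84 in VO LV, 9.87, 7.88 and 7.76 in sham RV and 4.88, 14.9 and 7.08 in VO RV. The lowest and the highest of the 12 values both lay in VO RV, whose SD of 5.27 FPKM was 58.8% of its mean, while counting alone gave 5.74% for an average library. The log2 fold change was 0.03 between the sham ventricles, −0.07 in VO LV and −0.06 in VO RV (95% confidence interval −0.74 to 0.61). The ratio of Ednra to Ednrb was 1.87 ± 0.48 in sham LV, 2.58 ± 0.44 in VO LV, 2.65 ± 0.07 in sham RV and 2.53 ± 1.38 in VO RV (SD, n = 3). Between the sham groups the ratios did not overlap (exact permutation p = 0.1), with or without sham RV replicate 1. In VO RV the ratio was 4.04, 1.33 and 2.23, and the atrial-rich replicate 2 had the lowest ratio of all libraries.

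Across the 12 libraries Ednrb and Ece1 varied together. Of the 21 pairs of tested members theirs was the closest relation, with r = 0.874 (permutation p = 0.00059, adjusted p = 0.0124 over 21 pairs) and rho = 0.846 (p = 0.00111, adjusted p = 0.0233, permutation test). Taken as deviations from the group means, r was 0.937. Without VO RV replicates 1 and 2, the libraries farthest from the median of Ednrb, r was 0.610, and without both atrial-rich RV libraries it was 0.730. VO RV replicate 2, highest for both genes, also had the largest sum of the 10 fibroblast markers, at 4733 FPKM against 2121 to 3590 in the other libraries. It also had the largest sums of the atrial markers (4637 FPKM) and of the Schwann cell and neural crest markers (14.5 FPKM). Its ventricular cardiomyocyte sum was the smallest (19239 FPKM), and its endothelial sum was 446 FPKM. The part of any of these cells in the relation was not tested.

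**Figure D3:**
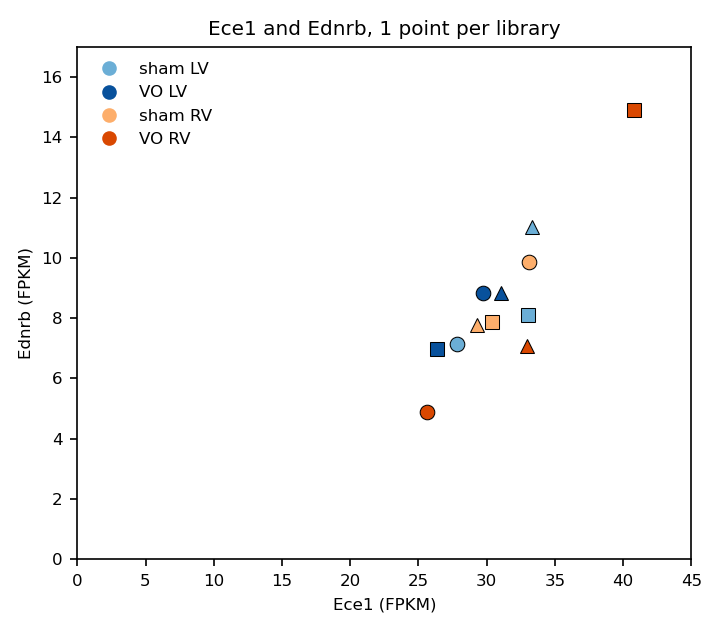
Ece1 (x axis, FPKM) against Ednrb (y axis, FPKM), with 1 point per library, colours for the 4 groups and circle, square and triangle for replicates 1, 2 and 3. VO RV replicate 2 lies at the top right (40.8 and 14.9 FPKM) and VO RV replicate 1 at the bottom left (25.6 and 4.88 FPKM).

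The promoters of this pair, and that of Ednra for comparison, are shown as the 250 bases before the start that RefSeq gives on GRCr8, 5′ to 3′ on the strand of the gene; 7 of the 9 members had a promoter in that table. Capitals mark matches on either strand to 6 searched motifs, namely the TATA box (letters TATAAA), the GC box (letters GGGCGG), the CCAAT box, the AP-1 site (letters TGANTCA), the GATA site (letters GATAA) and the core of a cyclic AMP response element (letters TGACG). Ednrb lay at chr15:87086766-87087015 on the minus strand, Ece1 at chr5:155360781-155361030 on the plus strand and Ednra at chr19:47137674-47137923 on the plus strand.
Ednrb: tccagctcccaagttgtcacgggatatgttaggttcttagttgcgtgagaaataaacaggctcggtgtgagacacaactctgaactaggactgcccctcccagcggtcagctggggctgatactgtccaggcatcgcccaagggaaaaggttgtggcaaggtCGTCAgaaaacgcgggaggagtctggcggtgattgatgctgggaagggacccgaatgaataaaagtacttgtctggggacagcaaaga
Ece1: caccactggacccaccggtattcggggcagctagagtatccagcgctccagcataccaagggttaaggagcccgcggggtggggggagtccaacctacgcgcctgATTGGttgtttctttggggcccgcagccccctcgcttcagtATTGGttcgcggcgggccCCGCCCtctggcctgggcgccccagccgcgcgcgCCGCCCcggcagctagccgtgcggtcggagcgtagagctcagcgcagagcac
Ednra: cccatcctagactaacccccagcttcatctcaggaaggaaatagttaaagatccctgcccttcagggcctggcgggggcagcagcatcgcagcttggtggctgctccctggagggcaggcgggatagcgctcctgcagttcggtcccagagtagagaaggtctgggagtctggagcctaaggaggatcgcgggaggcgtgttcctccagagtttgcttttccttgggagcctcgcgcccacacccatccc
The Ednrb window held 1 response element core, 84 to 88 bases before the start, a motif found in 18.2% of 33469 promoter windows of the same length. The Ece1 window held 2 GC boxes (30.5% of windows held at least 1) and 2 CCAAT boxes (34.0%), and no matches overlapped. No searched motif was present in both windows, and the Ednra window held none of the 6. The other motifs were found in 12.9% (TATA box), 6.34% (AP-1) and 23.5% (GATA) of windows.

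Agt (chr19:57321640-57333433), the precursor of all angiotensins, was at a low level in the heart wall. It was 2.89, 2.07 and 1.16 FPKM in sham LV, 1.31, 1.81 and 0.909 in VO LV, 1.22, 1.13 and 0.975 in sham RV and 1.88, 1.59 and 1.61 in VO RV. Sham LV spread the most, and its lowest library lay within the sham RV range. The 3 VO RV libraries all lay above the 3 sham RV libraries, with means of 1.69 ± 0.16 and 1.11 ± 0.12 (SD, n = 3, exact permutation p = 0.1).

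The log2 fold change of Agt was 0.60 between sham LV and sham RV (adjusted p = 0.167 from limma). It was −0.43 in VO LV (adjusted p = 0.324) and 0.45 in VO RV (adjusted p = 0.640). The difference of the responses was −0.88 (95% confidence interval −1.66 to −0.09, adjusted p = 0.158 from limma). Thus Agt and Ednra had differences of opposite sign between the responses. Without sham LV replicate 1, which was highest, Agt was 0.36 between the sham ventricles and −0.64 for the difference. Each value rested on 28 to 86 reads.

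Ace (chr10:94170789-94206535), an enzyme on the surface of endothelial cells, was higher in every sham LV library than in every sham RV library. It was 4.57, 3.77 and 3.94 FPKM in sham LV, 4.17, 3.78 and 2.38 in VO LV, 3.30, 2.64 and 2.92 in sham RV and 2.83, 3.39 and 2.83 in VO RV. VO LV overlapped both sham LV and VO RV, with VO LV replicate 3 the lowest of all 12 libraries. The log2 fold change was 0.41 between the sham ventricles (adjusted p = 0.172 from limma), −0.24 in VO LV and 0.03 in VO RV. Without VO LV replicate 3 the value in VO LV was −0.03.

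Between the sham ventricles the endothelial markers differed in the same direction as Ace. Of 12 marker symbols 11 were listed, Cldn5 was at 0 in all libraries, and the sum of the markers was 598 to 650 FPKM in sham LV, 463 to 517 in VO LV, 428 to 456 in sham RV and 431 to 549 in VO RV. Of the 10 tested, 9 were higher in sham LV than in sham RV (median log2 fold change 0.40) and 4 of them were DEGs. Also higher in sham LV were 6 of 6 red blood cell markers (median 0.68), 9 of 10 mural markers (0.25) and 8 of 9 macrophage markers (0.20), with 0 DEGs in each, and the part of any of these cells in the values of Ace was not tested. In VO RV replicate 3 the endothelial sum was above that of every VO LV library, while Ace was 2.83 FPKM. In VO LV replicate 3 the sum was the lowest of VO LV (463 FPKM) and Ace the lowest of all libraries (2.38 FPKM). As a share of that sum, a measure chosen after the data were seen, Ace was 0.658% ± 0.095 in sham LV and 0.670% ± 0.091 in sham RV (SD, n = 3, exact permutation p = 0.7). Edn1, which endothelial cells also make, was 0.261% ± 0.080 in sham LV and 0.503% ± 0.108 in sham RV, without overlap (exact permutation p = 0.1). So the shares of Ace in the sham ventricles overlapped, and those of Edn1 were further apart than its FPKM.

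**Figure D4:**
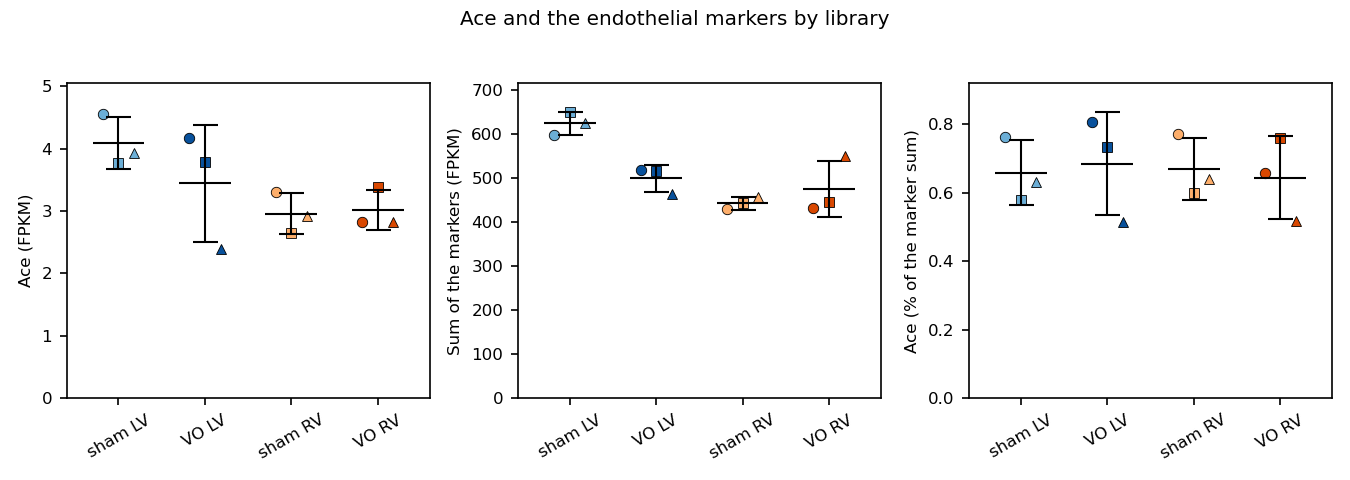
Ace (left, FPKM), the summed FPKM of the 11 listed endothelial markers (middle) and Ace as a percentage of that sum (right) in the 4 groups; points are libraries (circle, square and triangle for replicates 1, 2 and 3), the wide bar the mean and the error bar the SD of 3. Ace and the marker sum were both higher in sham LV than in sham RV in all libraries, and their ratio overlapped between all groups.

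Agtr1a (chr17:35907108-35958077), the receptor for the constrictor and growth signals of angiotensin II, overlapped between all groups. It was 4.83, 2.34 and 2.55 FPKM in sham LV, 2.38, 2.84 and 2.60 in VO LV, 2.63, 2.65 and 1.91 in sham RV and 1.78, 3.93 and 4.01 in VO RV. Sham LV replicate 1 lay far above the others of its group, and VO RV replicate 1 below. The log2 fold changes were 0.32 between the sham ventricles, −0.21 in VO LV, 0.32 in VO RV (95% confidence interval −0.31 to 0.94) and −0.52 for the difference of the responses. The paralog Agtr1b, nearly identical in its coding part, was listed at 0 in all 12 libraries, and how reads shared by both genes were counted was not given in the sources used here.

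Agtr2 (chrX:119390013-119393842), the second angiotensin II receptor, was near the limit of detection. It was 0.133, 0.105 and 0.0490 FPKM in sham LV, 0.105, 0.205 and 0.119 in VO LV, 0.103, 0.0718 and 0.0229 in sham RV and 0.114, 0.133 and 0.310 in VO RV. These values were 1 to 15 reads per library and 70 in all, 9 of them in sham RV and 27 in VO RV. Every VO RV library lay above every sham RV library (exact permutation p = 0.1), also with both atrial-rich libraries left aside. With all 21603 genes above 0 tested, its log2 fold change in VO RV was 0.27 (adjusted p = 0.717 from limma), on a scale that understates the change of low genes.

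The other ligands, enzymes and receptors of these systems were read through a list of 31 symbols, of which 28 were listed and 18 tested. The highest were Ctsd (cathepsin D) at 133 FPKM, the aminopeptidase Rnpep at 37.4, the prolylcarboxypeptidase Prcp at 15.3, the angiotensin II degrading aminopeptidase Enpep at 14.9, Prep at 13.0 and Atp6ap2 at 10.3. Anpep followed at 9.93, Thop1 at 7.45, Nln at 5.68, the Agtr1a partner Agtrap at 5.15, the mast cell protease Mcpt1 at 3.38, the mineralocorticoid receptor Nr3c2 at 1.87, the chymase Cma1 at 1.78, the bradykinin receptor Bdkrb2 at 1.45 and Kel at 1.18. Ece2, Mme, Hsd11b2, Mas1 and Lnpep lay between 0.163 and 0.659 FPKM, and Edn2, Mrgprd, Ctsg and Bdkrb1 had 1 to 7 reads in all. The aldosterone synthase Cyp11b2 was at 0 in all libraries.

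Between sham LV and sham RV, 3 of these 18 genes were DEGs, against 3.86% of all genes (median log2 fold change 0.05, against 0.01). Prcp was 21.0, 17.4 and 19.1 FPKM in sham LV and 14.2, 12.7 and 11.8 in sham RV (log2 fold change 0.55, adjusted p = 0.0459 from limma). Enpep was 18.1, 20.0 and 18.2 against 12.6, 13.8 and 12.7 (0.51, adjusted p = 0.0369). Prep, another peptidase, had a log2 fold change of −0.55 without overlap (adjusted p = 0.0872 from limma), so the peptidases of the list had values of both signs. Of the endothelial and of the mural markers 9 of 10 each were higher in sham LV (4 and 0 DEGs), and their part in the values of Prcp and Enpep was not tested. Nr3c2 was 0.791, 0.305 and 1.04 FPKM in sham LV and 4.05, 2.38 and 2.23 in sham RV (−1.49, adjusted p = 0.0471).

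With VO, 0 of the 18 were DEGs in either ventricle or between the VO ventricles in limma, while 5, 3 and 1 passed the unadjusted p, against 15.7%, 4.91% and 7.4% of all genes. Nr3c2 was 1.90, 2.29 and 3.32 FPKM in VO LV and 2.17, 1.48 and 0.532 in VO RV, so that the difference of its responses was 2.23 on the log2 scale (adjusted p = 0.0411 from limma), the only DEG of this list there, against 4.19% of all genes. In VO LV, Enpep had a log2 fold change of −0.46 (adjusted p = 0.0603) and Prep of 0.56. In VO RV the log2 fold change was 1.56 for Mcpt1 and 0.84 for Cma1, neither past the adjusted p, and both genes overlapped between the groups. For Mcpt1 it was 2.21 without sham RV replicate 1, 1.17 without VO RV replicate 2 and 1.82 without both, and for Cma1 1.07, 0.46 and 0.69.

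Of 36 listed transduction genes (G proteins, phospholipases, kinases, arrestins and regulators), 35 were tested and 2 were DEGs between the sham ventricles, a share close to the 3.86% of all genes (median log2 fold change −0.08, against 0.01). Rgs2, a brake on the Gq proteins that both receptor families use, was 13.3, 13.5 and 14.9 FPKM in sham LV and 21.3, 27.2 and 28.2 in sham RV (−0.85, adjusted p = 0.0407 from limma). Prkce, the epsilon isoform of protein kinase C, was 2.69, 2.36 and 3.66 FPKM in sham LV and 10.5, 7.43 and 6.19 in sham RV (−1.32, adjusted p = 0.0351). Both were lower in every sham LV library than in every sham RV library.

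In VO LV Prkce was 7.10, 7.78 and 10.8 FPKM, above all sham LV libraries (log2 fold change 1.41, adjusted p = 0.0514 from limma), and in VO RV it was 4.96, 5.71 and 2.83, below all sham RV libraries (−0.79). None of the 35 was a DEG for VO in 1 ventricle or between the VO ventricles. At the unadjusted p 3, 1 and 2 of the 35 passed, against 15.7%, 4.91% and 7.4% of all genes, and these shares were not tested against each other. For the difference of the responses 2 were DEGs, Prkce with a log2 difference of 2.20 (adjusted p = 0.0249) and the alpha isoform Prkca with 1.07 (adjusted p = 0.0368), a share of the 35 close to the 4.19% of all genes. In VO LV the log2 fold change was 0.70 for Prkca. Between VO LV and VO RV it was 0.88 for Prkce and 0.53 for Prkca.

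**Figure D5:**
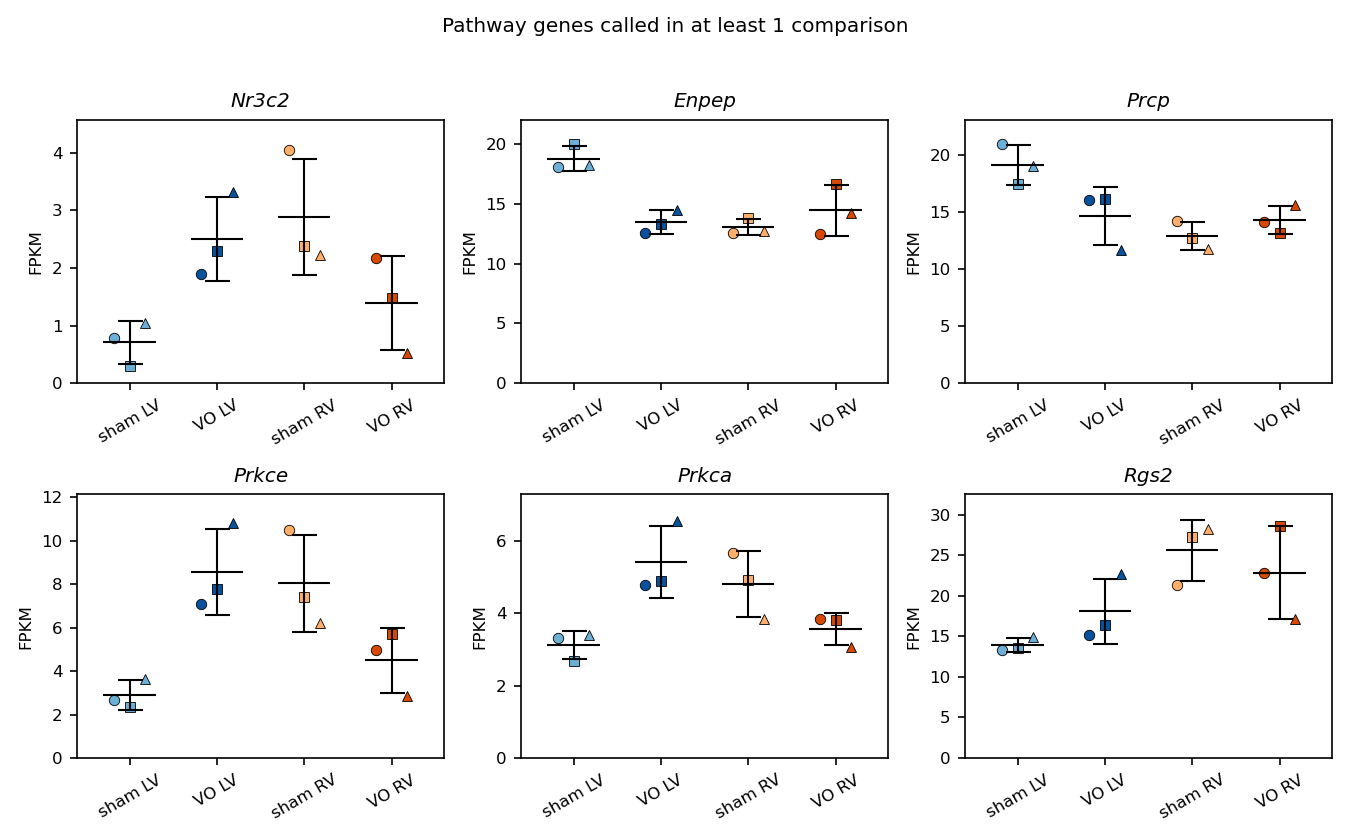
FPKM (y axis, linear, from 0) of the mineralocorticoid receptor Nr3c2, the peptidases Enpep and Prcp, the kinases Prkce and Prkca and the regulator Rgs2 in the 4 groups; points are libraries (circle, square and triangle for replicates 1, 2 and 3), the wide bar the mean and the error bar the SD of 3. Nr3c2, Prkce, Prkca and Rgs2 were lowest on average in sham LV and, unlike Enpep and Prcp, higher in VO LV.

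Genes commonly read as targets of endothelin 1 or angiotensin II made a list of 22 listed and 20 tested genes, with median log2 fold changes of 0.31 in VO LV and 0.31 in VO RV, against −0.02 and 0.00 over all genes. The median was −0.11 between the sham ventricles, −0.35 between VO LV and VO RV and −0.28 for the difference of the responses, against 0.01, 0.01 and −0.04. In VO RV 8 of 9 macrophage markers (median 0.29), 9 of 10 fibroblast markers (median 0.15) and 6 of 7 epicardial markers (median 0.30) were also above sham RV, 4 macrophage markers at the unadjusted p and none of the others. Of the atrial markers 5 of 6 were higher in VO LV (median 0.32) and 5 of 6 in VO RV (median 0.69). Of the ventricular markers 7 of 10 were higher in VO LV (median 0.25) and 3 of 10 in VO RV (median −0.14). In VO LV 1 of 9 macrophage, 1 of 10 fibroblast and 1 of 7 epicardial markers were higher. The list shares Col1a1 and Col3a1 with the fibroblast markers, Nppa with the atrial and Myh7 with the ventricular markers. The part of all these cells in its median was not tested. Between the sham ventricles Nppb, the natriuretic peptide B gene, was the only DEG (against 3.86% of all genes), at 211, 240 and 229 FPKM in sham LV and 130, 67.1 and 109 in sham RV (log2 fold change 1.20, adjusted p = 0.0325 from limma). For VO in 1 ventricle and between the VO ventricles 0 were DEGs, and 4, 6 and 8 of the 20 passed the unadjusted p, against 15.7%, 4.91% and 7.4% of all genes. In VO LV all 4 were higher, in VO RV 5 were higher and 1 lower, and between the VO ventricles 3 were higher and 5 lower in the LV. In VO LV the log2 fold change was 1.05 for the matricellular gene Ctgf, 0.59 for the calcineurin regulator Rcan1 and 0.45 for the beta myosin gene Myh7. In VO RV it was 0.83 for Nppb, 0.65 for the matricellular gene Cyr61 and −0.73 for Myh7.

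Myh7 was 796, 815 and 857 FPKM in sham LV, 1131, 966 and 1280 in VO LV, 1132, 1251 and 1018 in sham RV and 725, 598 and 720 in VO RV. It was the only gene of the list that was a DEG for the difference of the responses, with a log2 difference of 1.18 (adjusted p = 0.0249 from limma), against 4.19% of all genes. Between VO LV and VO RV the log2 fold change was 1.07 for Nppb, 0.72 for Myh7 and −0.72 for the protease inhibitor Timp1. In the same comparison 7 of 10 fibroblast markers (median −0.54) and 5 of 7 epicardial markers (median −1.27) were lower in VO LV at the unadjusted p, and their part in the value of Timp1 was not tested. Of the ventricular cardiomyocyte markers, a list that includes Myh7, 10 of 10 were higher in VO LV (median 0.30), 3 at the unadjusted p. Their part in the values of Nppb and Myh7 was not tested. All 10 calls made in these 3 lists were lost without sham LV replicate 1 or 2, without sham RV replicate 1 or 2, without VO LV replicate 2, and without both atrial-rich RV libraries, with adjusted p values of up to 0.174 when 1 library was left out. Of the 10, 4 held without VO LV replicate 1, 5 without VO LV replicate 3, 6 without sham LV replicate 3 or sham RV replicate 3, 8 without VO RV replicate 3, 9 without VO RV replicate 1 and 10 without VO RV replicate 2. The directions held in all of these.

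The genes whose log2 values followed each member most closely were sought among 11902 tested protein-coding genes by Pearson's r over the 12 libraries, as a description without a test, since all points share the libraries. For Ednra they were Adamts12 (r = 0.97) and Fzd1 (0.97), and for Ednrb Dchs1 (0.95) and Sh3d19 (0.92). For Ece1 they were Slc39a6 (0.93) and again Sh3d19 (0.91), and for Edn1 Smurf1 (0.83) and Uchl1 (0.81). Agt was followed by Sfxn4 (0.90) and Nfrkb (0.88), Ace by Eya2 (0.90) and Egflam (0.87), and Agtr1a by Cebpz (0.92) and Errfi1 (0.90). Ednra thus had the closest companions and Edn1 the least close. Counting error lowers r, and Edn1 had 27 to 69 reads per library where Ednra had 1047 to 2216. The part of counting error in this order was not tested.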

How the data were processed

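RNA of LV and RV free walls was sequenced in 12 libraries. The authors aligned reads with HISAT2 2.0.5, counted them per gene with featureCounts 1.5.0-p3 and deposited FPKM; StringTie 1.3.3b, DESeq2 1.20.0 and GATK 3.7 also stand in the submitters' processing notes. The genome build, annotation release and strand setting were not given in the sources used here. No column of values was left out.

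Multiplied by gene length, 100% of the deposited values under 200 reads were whole multiples of 1 step per library (tolerance 0.02), so reads could be recovered. FPKM were divided by median-ratio size factors (1.002 to 1.007), 0.5 was added, log2 was taken, and the 13910 genes whose mean FPKM reached 0.5 were fitted in R 4.3.3 with limma 3.58.1 (trend, 1 model of 4 groups). P values were adjusted by Benjamini-Hochberg. Calls required a fold change over 1.3 and an adjusted p under 0.05. Single genes were compared by exact two-sided permutation tests of the deposited FPKM and pairs of members by 100000 permutations (Python 3.11.15, scipy 1.17.1). The procedure was tested on simulated data.

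The members and the lists were chosen with earlier results of these data known. Of other pathway genes, those named were the called ones of each list and comparison, or else up to 3 with the smallest unadjusted p under 0.05, a fold change over 1.3 and a mean FPKM of at least 1; peptide and enzyme genes were also named by level, and for each member the 2 genes with the highest r. Some genes that this rule names are not reported here. Alternatives were deposited FPKM without size factors, quantile normalization, a pseudocount of 1 or of 0.1, no filter on genes above 0, a filter at a mean FPKM of 1, separate fits, array weights, robust eBayes, a block of the replicate number, voom on recovered reads, removal of the gene-length trend, both atrial-rich RV libraries left out, and each library left out in turn. The shares of the endothelial marker sum were added after the data were seen.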

Additional observations from a re-analysis of the deposited data

Results flagged for a closer look

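The difference of the responses to VO between the ventricles was called for 4 pathway genes, none of them a member. Ednra was singled out by the opposite directions of its libraries only. It had a difference of responses of 0.68 on the log2 scale, with every VO LV library above every sham LV library and every VO RV library below every sham RV library (higher in 3 of 3 and lower in 3 of 3). Its test of the difference did not pass the adjusted p (adjusted p = 0.0947 from limma).

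Among the other pathway genes the test of the difference itself passed for Nr3c2 (2.23, adjusted p = 0.0411 from limma), Prkce (2.20, adjusted p = 0.0249), Prkca (1.07, adjusted p = 0.0368) and Myh7 (1.18, adjusted p = 0.0249). All 4 were higher in VO LV than in sham LV and lower in VO RV than in sham RV on average. For the same difference 3 of 10 ventricular cardiomyocyte markers, a list that includes Myh7, were called (7 of 10 positive, median 0.29), as was 1 of 9 macrophage markers (0 of 9 positive, median −0.49), and the part of those cells in the 4 genes was not tested. All 4 calls were lost without VO LV replicate 2 or 3, sham LV replicate 1 or 2, or sham RV replicate 1 or 2, with adjusted p values of up to 0.115 when 1 library was left out, and without both atrial-rich RV libraries. A like difference was called for 583 of 13910 tested genes (4.19%).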

How the results depend on the processing

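No alternative made any member pass the adjusted p in any of the 5 comparisons. Ednra and Agt kept their direction in every alternative and comparison: Ednra ranged from −0.58 to −0.34 between the sham ventricles (adjusted p 0.0694 to 0.276) and from 0.52 to 0.76 for the difference of responses, and Agt from 0.36 to 0.88 and from −1.18 to −0.64. Scaling alternatives moved the median of all genes by less than 0.01 (log2). The number of all genes called was 0 (without sham RV replicate 1) to 1321 (array weights) between the sham ventricles against 537, 0 to 704 against 13 in VO LV, 0 to 2 against 0 in VO RV, 1 to 48 against 1 between the VO ventricles and 0 to 1047 against 583 for the difference.

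The log2 fold changes that reversed lay between −0.27 and 0.20 as first fitted, other than that of Ace between the sham ventricles (0.41). With array weights they were −0.0197 for Ece1 between the sham ventricles, −0.0211 for Edn1 in VO LV, and −0.1363 for Edn1 and 0.1398 for Ednrb for the difference. Relative to the endothelial marker sum Ace was −0.0265 between the sham ventricles, 0.0404 in VO LV, −0.0666 in VO RV and 0.1069 for the difference, and Edn1 was −0.0690 in VO RV. Without both atrial-rich RV libraries Ece1 was −0.0394 in VO RV and 0.0004 between the VO ventricles, and Ednrb was 0.3152 for the difference. Between the VO ventricles Ednrb was −0.0181 with quantile normalization and −0.0040 with voom. The cause was not tested.

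Leaving out 1 library at a time, the log2 fold change between the sham ventricles ranged from −0.0295 to 0.1006 for Ece1 and −0.1446 to 0.1541 for Ednrb. In VO LV it ranged from −0.3737 to 0.0773 for Agtr1a and −0.1983 to 0.0995 for Ednrb. In VO RV the ranges were −0.0499 to 0.0971 (Ace), −0.0879 to 0.2450 (Ece1), −0.1474 to 0.2582 (Edn1) and −0.4876 to 0.2728 (Ednrb). Between the VO ventricles they were −0.3337 to 0.0003 (Ece1), −0.4282 to 0.0284 (Edn1) and −0.3171 to 0.4443 (Ednrb), and for the difference −0.0575 to 0.3988 (Edn1) and −0.3421 to 0.4192 (Ednrb).

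The deviations of libraries of the same number from their group means had r of −0.283 to 0.123 over 18 pairs, 2 of them over 0.1. Between LV and RV of the same number r was 0.0447, 0.0376 and 0.123 in sham and 0.0536, −0.051 and −0.2185 in VO. The other pairs join sham and VO libraries, which cannot share an animal. With 3 libraries in a group, these values cannot tell whether LV and RV of the same number came from the same animal. With the replicate number as a block, 0 members were called, 3, 1, 0, 0 and 2 members passed the unadjusted p as before, and 3, 3, 0, 2 and 1 of all genes were called in the 5 comparisons. Of the 10 calls in the other pathway lists, 0 held with that block or with all genes above 0 tested, and 10 held with voom, array weights, quantile normalization and the gene-length trend removed. Edn3 and Agtr2 rest on too few reads, and Edn1 and Agt on under 90 reads per library, which limits what these values can show.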

Other observations

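Proteases of mast cells can form angiotensin II without Ace, and their genes were lowest in 2 of the 3 sham RV libraries. Mcpt1 was 3.97, 4.60 and 3.78 FPKM in sham LV, 3.70, 0.478 and 0.717 in sham RV, 3.18, 2.51 and 2.73 in VO LV and 3.90, 8.16 and 2.89 in VO RV. Cma1 was 1.72, 3.33 and 1.69 FPKM in sham LV, 1.36, 0.718 and 0.549 in sham RV, 2.21, 1.54 and 1.97 in VO LV and 0.958, 3.52 and 1.80 in VO RV. Cpa3, a mast cell carboxypeptidase looked up after these values were seen, was 1.01, 2.46 and 1.76 FPKM in sham LV, 0.794, 0.264 and 0.798 in sham RV, 1.31, 1.35 and 1.43 in VO LV and 0.964, 3.45 and 1.48 in VO RV. In VO RV replicate 2 all 3 genes were at their highest level of the 12 libraries.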
